A study of Homo sapiens with 6 samples.

Results

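Replication-independent histone variants are histones made outside the burst of histone synthesis that accompanies DNA replication. The set described here is 9 genes: the linker histone gene H1-10, the H2A variant genes H2AZ1, H2AZ2, H2AX and H2AJ, the macroH2A genes MACROH2A1 and MACROH2A2, and the H3.3 genes H3-3A and H3-3B. They were chosen by name, 1 row each among the 50868 rows of the deposited gene table, and not by their values. The RNA came from KYSE-150, a long-used human cell line derived from a squamous carcinoma of the oesophagus and kept in RPMI medium with fetal bovine serum. The control group, titled nc and called wild type in the series text, had 3 libraries, and the siZNF514 group, labelled both a ZNF514 knockout and siZNF514, had 3 libraries. The labels do not say whether nc cells received a control siRNA, nor whether each library had its own culture, so the p-values below rest on a spread that may be technical.

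Core histones form the nucleosome that DNA wraps around, and linker histones bind where DNA enters and leaves it. Most histone mRNA comes from clustered genes that are active in S phase and end in a stem-loop instead of a poly(A) tail. Variant genes lie outside those clusters and most are transcribed through the cell cycle, and their proteins replace or supplement the S-phase histones. H3.3 is placed at active genes by the HIRA complex and at silent repeats by DAXX and ATRX. H2A.Z is exchanged into promoter nucleosomes by the SRCAP and EP400 complexes. H2A.X is phosphorylated around DNA breaks, and macroH2A carries a large extra domain and is enriched in repressed chromatin.

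Libraries held 12175259 to 14318909 counts. ZNF514 itself had 239, 273 and 261 counts in nc and 64, 82 and 63 in siZNF514, so the targeted transcript was lower in every library so labelled. Of 8 squamous epithelial markers, 7 exceeded 1 CPM (counts scaled to a common library size by TMM) in every library, and SOX2 was at or near 0. Of 5 fibroblast, 4 immune and 3 endothelial markers, none did so in every library. The summed fibroblast markers were 1.79 to 3.55 CPM in nc and 0.46 to 17.0 CPM in siZNF514, where the highest value belonged to replicate 3. Without that library the calls of all 9 variant genes were as with it.

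Of the 9 variant genes, all of which passed the filter on low counts, 5 were higher in siZNF514, 1 was lower and 3 did not pass an adjusted p of 0.05 (edgeR quasi-likelihood test, Benjamini-Hochberg adjustment over 14250 genes). In the same comparison 25.5% of all tested genes were called higher, 25.1% lower and 50.6% in either direction, so a call by itself says little about these 9 genes. Their median log2 fold change was 0.31, beside -0.01 for all tested genes. That median is the value of MACROH2A2, which had 5 to 16 counts per library and an SE of 0.50. The values next to it in order were 0.21 for H2AZ2 and 0.33 for H2AJ. H1-10 more than doubled, H2AZ1 rose by 1.63 times, H3-3A by 1.46, H2AJ by 1.26 and H2AZ2 by 1.16, while MACROH2A1 fell to 77.5% of nc. H2AX, H3-3B and MACROH2A2 did not pass. In CPM, the 2 groups did not overlap for 6 genes that were higher in siZNF514 and 1 that was lower, and such separation was seen in 30.0% of all tested genes upward and 30.3% downward. H2AZ2 is the variant gene whose call depended on scaling, as given with its values.

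**Figure D1:**
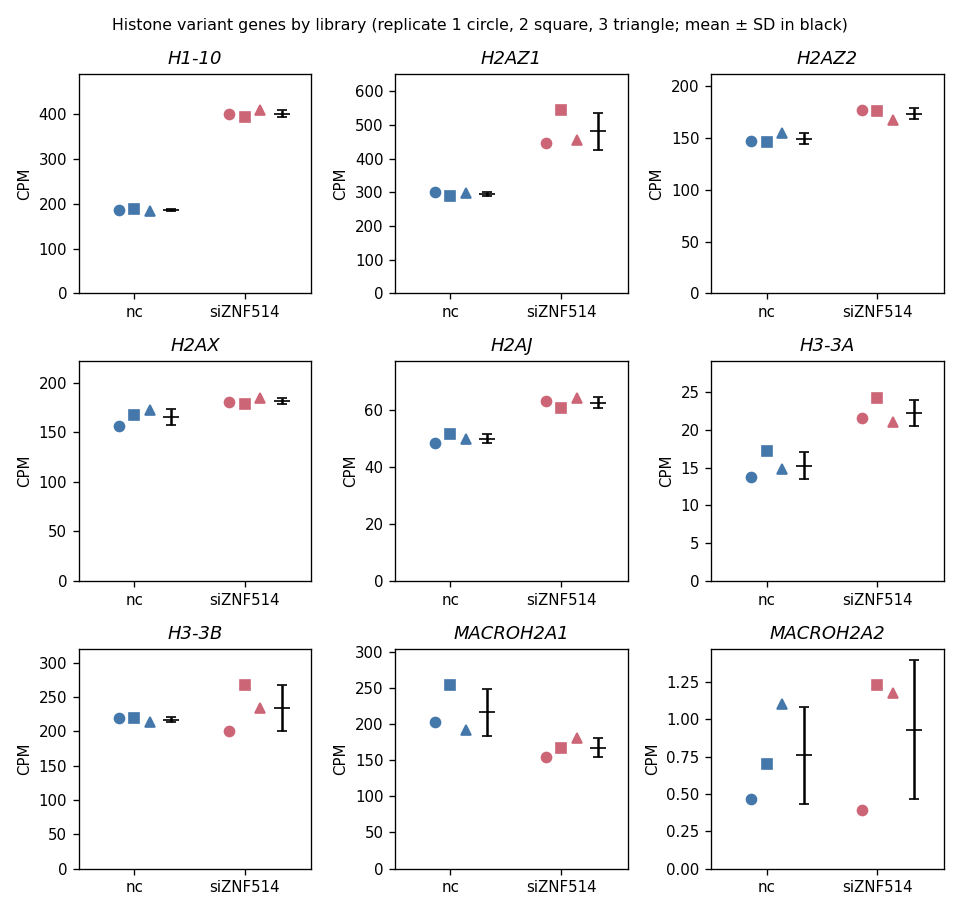
CPM of each variant gene (vertical axis, from 0) in the 3 nc libraries (blue) and the 3 siZNF514 libraries (red), with replicates 1, 2 and 3 as circle, square and triangle and the group mean ± SD in black. H1-10 and H2AZ1 separate widely, whereas H3-3B and MACROH2A2 overlap between groups.

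The linker histone gene H1-10 (ENSG00000184897, hg38 chromosome 3, 129314771 to 129316277, minus strand) encodes H1.10, a divergent member of the linker histone family that is expressed independently of replication. It had 187, 188 and 185 CPM in nc and 401, 395 and 409 CPM in siZNF514. Every siZNF514 library was far above every nc library, and the values within a group lay close together (coefficients of variation 0.956% and 1.81%). The mean rose from 187 ± 1.78 to 402 ± 7.26 CPM, or 1.11 on the log2 scale (SE 0.03; adjusted p = 3.47e-06, edgeR quasi-likelihood test). The fold was 2.15 with a 95% interval of 2.04 to 2.28. Only 2.08% of tested genes were called higher by at least 2-fold. The antisense transcript H1-10-AS1, which overlaps the gene, had 30, 28 and 32 counts in nc and 53, 39 and 55 in siZNF514, against 2339 or more for H1-10, so it is small beside the gene itself.

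H1-2, the main S-phase linker histone gene here, fell from 629 ± 2.33 to 77.9 ± 2.51 CPM. The 2 genes whose levels across the 6 libraries were closest to the pattern of H1-10, by Euclidean distance of log2 CPM centred on nc, were DDIT4 (distance 0.087) and LONRF1 (0.0907).

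The sequences upstream of 5 variant genes are shown because these genes ranged from a doubling to no call, and because H2AZ1 and H2AZ2 code for nearly the same histone. They are the 250 bases before the RefSeq start in GRCh38.p14, at chr3:129316287-129316536, chr4:99950276-99950525, chr7:44848088-44848337, chr11:119095466-119095715 and chr17:75779780-75780029, all read on the minus strand and printed 5′ to 3′. Capitals mark 3 motifs on either strand. The first is the TATA box, searched as TATAAA. Another is the CCAAT box, searched by those letters. The last is the cell cycle element known as CHR, searched as TTTGAA, and none of the matches overlap.
H1-10: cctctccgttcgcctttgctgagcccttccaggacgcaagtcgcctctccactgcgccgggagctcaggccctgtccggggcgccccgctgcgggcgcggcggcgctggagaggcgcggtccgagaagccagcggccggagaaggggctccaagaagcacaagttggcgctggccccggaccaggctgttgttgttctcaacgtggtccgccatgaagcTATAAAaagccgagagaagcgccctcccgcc
H2AZ1: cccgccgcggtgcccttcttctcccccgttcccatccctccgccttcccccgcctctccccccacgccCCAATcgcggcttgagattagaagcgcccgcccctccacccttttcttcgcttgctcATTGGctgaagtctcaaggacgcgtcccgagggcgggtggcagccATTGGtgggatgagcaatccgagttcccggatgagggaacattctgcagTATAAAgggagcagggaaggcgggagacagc
H2AZ2: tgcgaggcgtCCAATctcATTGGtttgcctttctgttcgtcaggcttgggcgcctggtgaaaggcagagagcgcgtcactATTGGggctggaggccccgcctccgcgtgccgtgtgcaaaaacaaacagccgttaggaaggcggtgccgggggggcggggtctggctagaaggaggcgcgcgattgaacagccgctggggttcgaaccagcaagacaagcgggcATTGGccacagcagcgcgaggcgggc
H2AX: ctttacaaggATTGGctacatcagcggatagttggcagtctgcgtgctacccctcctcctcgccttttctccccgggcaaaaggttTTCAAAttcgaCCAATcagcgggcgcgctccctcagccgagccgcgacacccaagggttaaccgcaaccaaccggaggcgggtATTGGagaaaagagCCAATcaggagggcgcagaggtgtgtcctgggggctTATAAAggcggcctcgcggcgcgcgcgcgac
H3-3B: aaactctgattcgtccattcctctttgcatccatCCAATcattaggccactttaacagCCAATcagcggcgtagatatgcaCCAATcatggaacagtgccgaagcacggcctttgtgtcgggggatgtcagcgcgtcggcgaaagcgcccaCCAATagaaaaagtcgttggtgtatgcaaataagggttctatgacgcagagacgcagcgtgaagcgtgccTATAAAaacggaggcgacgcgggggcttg

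In 300-base windows that add the first 50 transcribed bases, and on both strands, the CCAAT letters occurred in 34.6% of 35116 RefSeq promoters, the TATA box in 11.5% and the CHR letters in 15.2%. The 9 variant genes have 13 such windows, since H3-3A has 4 and MACROH2A1 has 2, and 9 windows held a CCAAT box, 4 a TATA box and 2 the CHR letters. The TATA box began 31 bases before the start in H1-10, H2AZ1 and H2AX and 29 before it in H3-3B. The window of H2AZ2 has no TATA box. The CCAAT box is absent from the windows of H1-10, which rose, and MACROH2A2, which did not pass. It occurs 4 times each in H2AZ2, which rose, and in H2AX and H3-3B, which did not pass. H2AZ1 carries the CHR letters just inside the transcribed region, from transcribed base 5, in agcgcagTTTGAAtcgcggt (chr4:99950259-99950278, minus strand). The E2F letters, searched as TTTNGCGC, were in 1.79% of all windows and in no variant window. The CRE letters, searched as TGACGTCA, were in 1.85% and likewise in no variant window. These are matches of letters and say nothing of binding.

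The H2A.Z genes rose by unequal amounts. H2AZ1 (ENSG00000164032, chromosome 4, 99948086 to 99950388, minus strand) encodes H2A.Z.1, the form that mouse development requires. Its level was 300.2, 288 and 297 CPM in nc and 445, 544 and 454 CPM in siZNF514. All siZNF514 libraries were higher, replicate 2 standing above the other two. The log2 fold change was 0.71 (SE 0.08, adjusted p = 0.00032 in the edgeR quasi-likelihood test), with a 95% interval of 1.44 to 1.85 on the fold scale.

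H2AZ2 (ENSG00000105968, chromosome 7, 44826791 to 44848083, minus strand) encodes H2A.Z.2, which differs from H2A.Z.1 by a few amino acids. It had 147, 146 and 155 CPM in nc and 177, 176 and 167 CPM in siZNF514. The groups did not overlap, but they lay close together, and the log2 change was 0.21 (SE 0.05; adjusted p = 0.00722, edgeR quasi-likelihood test). With total counts alone it was 0.09 and did not pass (adjusted p = 0.158). That scaling moved the median log2 fold change of all tested genes from -0.01 to -0.14. Under it, 4 variant genes were higher and 1 lower, and the split over all genes was 2493 higher and 4775 lower in place of 3629 and 3583.

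The share of H2AZ1 in the summed FPKM (fragments scaled by gene length and library total) of both genes was 66.8%, 66.0% and 65.4% in nc and 71.3%, 75.3% and 72.8% in siZNF514. The mean went from 66.1% ± 0.728 to 73.1% ± 2.01 with no overlap, a difference of 7.06 percentage points. This share within a library does not depend on the scaling between libraries, but its size does depend on the gene lengths used. In CPM per kilobase of merged GENCODE 29 exons, the mean share was 80.28% in nc and 85.04% in siZNF514. That difference was 4.76 percentage points, again with no overlap. For the FPKM share, p was 0.1 in an exact two-sided permutation test, the lowest value this design can reach. It was 0.15 after adjustment over the 3 gene pairs compared. The log2 ratio of H2AZ1 to H2AZ2 was 0.49 higher in siZNF514 with either set of lengths, beside SDs of 0.05 in nc and 0.15 in siZNF514. Among rows named as H2AZ1 copies, H2AZP1 to H2AZP7, none had more than 5 counts over all libraries. The H2AZ2 copy H2AZ2P1 had 23 to 29 counts in nc and 33 to 46 in siZNF514.

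Of 14 tested genes that exchange or carry H2A.Z, 7 were higher, 3 lower and 4 not called, around a median of 0.24 on the log2 scale. With total counts alone 6 were higher and 4 lower. The remodeller subunit genes ACTL6A (150.5 ± 7.55 to 226 ± 2.17 CPM), RUVBL2 (362 ± 13.9 to 507 ± 16.4 CPM) and ACTR6 (60.3 ± 2.02 to 80.9 ± 1.96 CPM) rose. ANP32E, a chaperone that removes H2A.Z from chromatin, fell from 167 ± 3.66 to 106 ± 5.82 CPM. SRCAP, the ATPase that gives its complex its name, fell by 1.03 on the log2 scale (SE 0.21), from a mean of 158 to 77.5 CPM, and it was named after its values were seen. Of 4 genes of H2A.Z readers, 2 fell and 2 did not pass (3 fell with total counts alone). Those that fell were BRD2 (139 ± 2.10 to 113 ± 4.23 CPM), which binds acetylated chromatin, and PHF14 (66.4 ± 4.44 to 56.6 ± 2.17 CPM).

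H2AX (ENSG00000188486, chromosome 11, 119093854 to 119095467, minus strand) encodes H2A.X, whose phosphorylated form marks DNA breaks. It had 157, 168 and 172 CPM in nc and 181, 179 and 185 CPM in siZNF514. Although on this TMM scale every siZNF514 library was above every nc library, the gap was small, and the gene did not pass (log2 fold change 0.13, SE 0.05, adjusted p = 0.0556 in the edgeR quasi-likelihood test). The 95% interval of its fold change ran from 1.01 to 1.19 before adjustment over genes, so a rise beyond 1.19-fold lies outside it. Without nc replicate 3 it passed at 0.17 (adjusted p = 0.045), and with total counts alone the log2 fold change was 0.0061 (adjusted p = 0.923). In FPKM, which is scaled by library total, the groups overlapped (54.9 to 60.1 in nc and 57.0 to 59.0 in siZNF514). Of 11 tested genes whose products add or remove H2A.X phosphorylation or act at breaks that carry it, 1 rose, 3 fell and 7 did not pass (4 fell with total counts alone). The phosphatase gene EYA3 rose from 33.4 ± 2.14 to 51.2 ± 2.10 CPM. The break kinase gene ATM fell from 91.8 ± 0.644 to 70.9 ± 5.15 CPM, and MDC1, the adaptor that binds phosphorylated H2A.X, from 181 ± 5.03 to 147 ± 9.39 CPM. BAZ1B, which phosphorylates H2A.X on tyrosine, fell by less (-0.12, SE 0.04).

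H2AJ (ENSG00000246705, chromosome 12, 14774383 to 14778002, plus strand) encodes H2A.J, a mammalian variant known to accumulate in senescent cells. It had 48.4, 51.6 and 49.8 CPM in nc and 63.1, 60.6 and 64.3 CPM in siZNF514. The groups were clearly apart, at 0.33 on the log2 scale (SE 0.05; adjusted p = 0.00225, edgeR quasi-likelihood test), which was 0.20 with total counts alone and still passed. Its neighbour H4-16, an S-phase H4 gene that lies 3251 bases away on the other strand, moved the other way, from 42, 40 and 40 counts in nc to 16, 19 and 13 in siZNF514.

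The macroH2A genes differed greatly in level. MACROH2A1 (ENSG00000113648, chromosome 5, 135333900 to 135399914, minus strand) encodes macroH2A1. It had 203, 254 and 192 CPM in nc and 155, 167 and 181 CPM in siZNF514. The groups did not overlap, but the lowest nc library and the highest siZNF514 library were near each other, and nc replicate 2 stood above the other nc libraries. It fell by 0.37 on the log2 scale (SE 0.11, adjusted p = 0.0282 in the edgeR quasi-likelihood test). Without siZNF514 replicate 1 (adjusted p = 0.0931) or without siZNF514 replicate 2 (adjusted p = 0.0752) it did not pass, and without nc replicate 2 the log2 fold change was -0.23.

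MACROH2A2 (ENSG00000099284, chromosome 10, 70052796 to 70112280, plus strand), which encodes the related macroH2A2, was barely detected, with 6, 10 and 14 counts in nc and 5, 16 and 16 in siZNF514. The groups overlapped fully. Its fold change had a 95% interval of 0.55 to 2.78, so a change of that size was not detectable at this depth. MACROH2A1 made up 95.8% ± 2.07 of the summed FPKM of both genes in nc and 93.8% ± 2.79 in siZNF514 (exact two-sided permutation test, p = 0.3, adjusted over 3 pairs p = 0.3).

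Of the 4 genes for macroH2A partners and the FACT histone chaperone, 2 rose and 2 fell. PARP1, whose product macroH2A1 can bind, rose from 327 ± 0.805 to 402 ± 7.99 CPM. The FACT subunit genes moved apart: SSRP1 fell from 562 ± 5.89 to 399 ± 9.52 CPM, and SUPT16H rose from 441 ± 8.04 to 494 ± 0.286 CPM, but SUPT16H did not pass with total counts alone (log2 fold change 0.04). APLF, a macroH2A chaperone gene, fell at a low level, from 2.02 ± 0.384 to 1.24 ± 0.199 CPM.

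**Figure D2:**
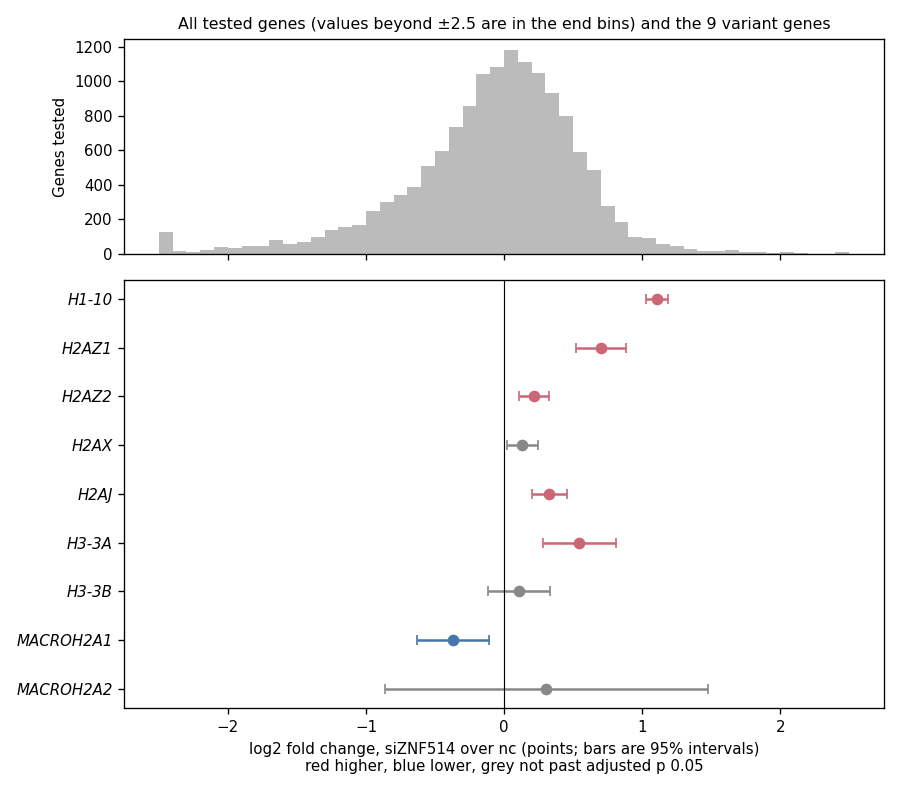
Log2 fold change of siZNF514 over nc (horizontal axis) for all 14250 tested genes as a histogram above, with the number of genes on its vertical axis, and for the 9 variant genes below, with 95% intervals as bars. H1-10 (1.11) lies in the upper tail of all genes, and the other variant genes lie between -0.37 and 0.71.

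H3-3A and H3-3B encode the same H3.3 protein from different nucleotide sequences. H3-3B (ENSG00000132475, chromosome 17, 75776434 to 75785893, minus strand) had 219, 219 and 213 CPM in nc and 201, 267 and 234 CPM in siZNF514. The siZNF514 libraries lay on both sides of the nc libraries, and the gene did not pass (log2 fold change 0.11, SE 0.10, adjusted p = 0.378 in the edgeR quasi-likelihood test; 95% interval of the fold 0.92 to 1.26). Its direction turned with total counts alone (-0.02), and without siZNF514 replicate 1 it passed at 0.22 (adjusted p = 0.0379).

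H3-3A (ENSG00000163041, chromosome 1, 226061851 to 226072001, plus strand) had 177, 245 and 187 counts in nc and 275, 316 and 286 in siZNF514. In CPM these were 13.7, 17.2 and 14.8 against 21.6, 24.2 and 21.0, with no overlap, and the log2 fold change was 0.55 (SE 0.11, adjusted p = 0.00607 in the edgeR quasi-likelihood test). The row is less sure than the others, because 2 processed copies of the gene hold more counts than it does. H3P6 (chromosome 2, 174719908 to 174720318, plus strand) had 326, 405 and 334 counts in nc and 553, 591 and 634 in siZNF514. H3P16 (chromosome 4, 139698144 to 139698554, minus strand) had 370, 425 and 361 counts in nc and 598, 637 and 674 in siZNF514. Both rows rose, by log2 fold changes of 0.75 (SE 0.07) and 0.74 (SE 0.06). Of 46 rows named H3P, these were the only 2 with more than 5 counts over all libraries.

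In GENCODE 29 the 411-base H3P6 sequence is found whole in 3 H3-3A transcripts, H3P16 matches it at 408 of 411 bases, and the best match in H3-3B is 323 of 411. The stretch from base 344 to base 403, counted from the first base of H3P6, is printed to show how little separates the copies, with capitals where a sequence differs from H3-3A.
H3-3A and H3P6: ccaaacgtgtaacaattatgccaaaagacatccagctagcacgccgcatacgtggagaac
H3P16: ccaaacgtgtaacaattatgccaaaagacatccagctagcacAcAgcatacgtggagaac
H3-3B: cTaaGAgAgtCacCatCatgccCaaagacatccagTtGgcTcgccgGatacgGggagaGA
H3P16 has 2 differences from H3-3A in these 60 bases and H3-3B has 15. Because H3-3A and H3P6 are identical over all 411 bases, reads from them cannot be told apart there. Reads that cross the 2 differences of H3P16 can be told from both. No source used here states how reads with several matches were counted, so the row that received such reads is not known.

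With the 3 rows added together, H3-3A-like counts were 70.9 ± 3.98 CPM in nc and 116 ± 3.38 CPM in siZNF514, a log2 change of 0.71 (SE 0.06; adjusted p = 8.68e-05, edgeR quasi-likelihood test). All siZNF514 sums (112 to 118 CPM) were above all nc sums (67.8 to 75.4 CPM). The share of H3-3A in the FPKM of both H3.3 genes went from 16.2% ± 1.51 to 20.9% ± 1.69, with no overlap (exact two-sided permutation test, p = 0.1, adjusted over 3 pairs p = 0.15). In counts, the share was 6.55% ± 0.684 in nc and 8.75% ± 0.824 in siZNF514 without the copies. With the copies added, also in counts, it was 24.6% ± 0.975 in nc and 33.3% ± 2.53 in siZNF514.

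**Figure D3:**
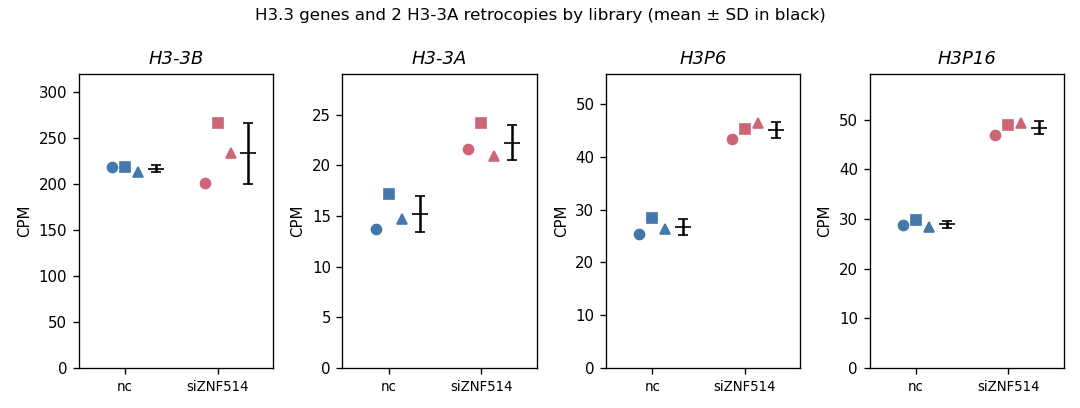
CPM (vertical axes, each from 0) of H3-3B, H3-3A and the H3-3A copies H3P6 and H3P16 in each nc (blue) and siZNF514 (red) library, with mean ± SD in black. H3P6 and H3P16 rise with H3-3A and lie above it in every library, while H3-3B spreads widely in siZNF514.

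Of 8 tested genes of H3.3 deposition, 2 were higher, 3 lower and 3 did not pass. CABIN1, a subunit of the HIRA complex, rose from 65.9 ± 1.70 to 97.5 ± 4.41 CPM, and HIRA itself, the chaperone that binds H3.3, fell from 61.4 ± 7.63 to 44.2 ± 6.84 CPM. UBN2, which works with HIRA, rose from 29.3 ± 3.31 to 37.8 ± 2.59 CPM but did not pass with total counts alone (log2 fold change 0.24), and DEK, another H3.3 chaperone, fell from 369 ± 20.1 to 276 ± 6.98 CPM. DAXX and ATRX, named after their values were seen, did not pass and stood at -0.01 (SE 0.12) and -0.02 (SE 0.16) on the log2 scale. Of 8 genes of H3-H4 chaperones tied to replication, 2 rose, 3 fell and 3 did not pass, and NASP, one of the 2 that rose, did not pass with total counts alone. ASF1B, which hands newly made H3-H4 to replicating chromatin, fell from 101 ± 0.869 to 37.5 ± 0.753 CPM, whereas its paralog ASF1A, named after its values were seen, did not pass (-0.09, SE 0.08).

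Levels of different genes were compared per length. By deposited FPKM, the order in nc was H1-10 (129 ± 1.40), H2AX (57.8 ± 2.68), H2AZ1 (47.5 ± 1.17), H2AZ2 (24.4 ± 0.775), H3-3B (18.5 ± 0.330), H2AJ (11.5 ± 0.329), MACROH2A1 (8.24 ± 1.24), H3-3A (3.57 ± 0.407) and MACROH2A2 (0.351 ± 0.149). No neighbours in that order had overlapping ranges. H3-3A is placed here and below by its own row alone, which held 15.2 CPM in nc. With H3P6 and H3P16 added it was 70.9 CPM, so its place depends on how reads shared with these copies were counted. In siZNF514 the same order held except that H2AZ1 (71.0 ± 7.85) was above H2AX (58.1 ± 0.991), again with no overlap between neighbours. The gene lengths behind these FPKM values exceed the genomic span of the gene for 4 of the 9, for example 6473 bases for H2AZ1 over a span of 2303, which lowers their FPKM. They exceed the merged GENCODE 29 exons for every variant gene but H1-10 (1507 bases in both), for example 27407 over 17730 for MACROH2A1. The FPKM order therefore favours H1-10.

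Per kilobase of merged GENCODE 29 exons, H2AZ1 came first in nc with 128 ± 2.86 CPM per kilobase, just above H1-10 with 124 ± 1.18, and H2AX had 103 ± 5.06. On this scale H3-3B (35.4 ± 0.571) was above H2AZ2 (31.5 ± 1.04), and in siZNF514 their ranges overlapped. In siZNF514 H1-10 was first with 267 ± 4.82 and H2AZ1 next with 209 ± 23.6. H1-10, H2AZ1 and H2AX were therefore the 3 highest of the set on both scales, and MACROH2A2 the lowest.

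The S-phase histone genes went the other way. Of 65 such genes, 34 had enough counts to test, and 24 of these were lower in siZNF514 and 10 did not pass (26 lower with total counts alone). Their median log2 fold change was -1.38. Besides H1-2, the genes with the smallest p-values were H4C8 (28.3 ± 1.66 to 2.49 ± 0.188 CPM), H2AC19 (50.4 ± 1.27 to 13.4 ± 1.35 CPM) and H2BC5 (40.3 ± 3.95 to 13.1 ± 0.991 CPM). Summed, the 9 variant genes went from 1296 ± 31.5 to 1725 ± 84.7 CPM, and the 65 S-phase genes from 1063 ± 3.35 to 322 ± 7.45 CPM. A single gene weighed heavily in each sum. Without H1-10 the other 8 variant genes went from 1110 ± 30.4 to 1324 ± 88.4 CPM, and without H1-2 the other 64 S-phase genes from 434 ± 2.99 to 244 ± 5.74 CPM. Whether polyadenylated RNA was selected is not given, and the mRNA of the S-phase genes mostly lacks the tail. Their levels therefore cannot be set against those of the variants. Their fall is likewise one in counts, and whether all of their mRNA fell was not tested.

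Of 7 genes that process or transcribe S-phase histone mRNA, 2 rose, 3 fell and 2 did not pass. LSM11, a subunit of the U7 particle that cuts these mRNAs, rose from 21.7 ± 1.33 to 52.4 ± 0.980 CPM. ERI1, an exonuclease that trims their stem-loop, rose from 61.6 ± 1.44 to 81.2 ± 1.11 CPM. NPAT, which activates the histone clusters, fell from 45.9 ± 3.81 to 31.9 ± 1.24 CPM, and CASP8AP2, a factor of the same nuclear body, from 46.1 ± 1.79 to 22.8 ± 1.64 CPM. SLBP, which binds the stem-loop, did not pass (-0.02, SE 0.06) and was named after its values were seen.

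Cell cycle genes also differed between the groups. Of 15 genes of G2/M, 14 were higher and 1 did not pass, with a median of 0.82, and AURKA, a mitotic kinase gene, rose from 136 ± 1.67 to 313 ± 15.8 CPM. Of 15 genes of S phase, 3 rose and 7 fell, around a median of -0.12 (3 and 9 with total counts alone). PCNA, which encodes the replication clamp, fell from 290.5 ± 12.9 to 152 ± 1.42 CPM, and RRM2, a ribonucleotide reductase subunit gene, rose from 189 ± 2.72 to 450 ± 8.86 CPM. The part of cell cycle position in the levels of the variant genes was not tested. In bulk RNA, a change in how many cells express a gene and a change per cell cannot be told apart.

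**Figure D4:**
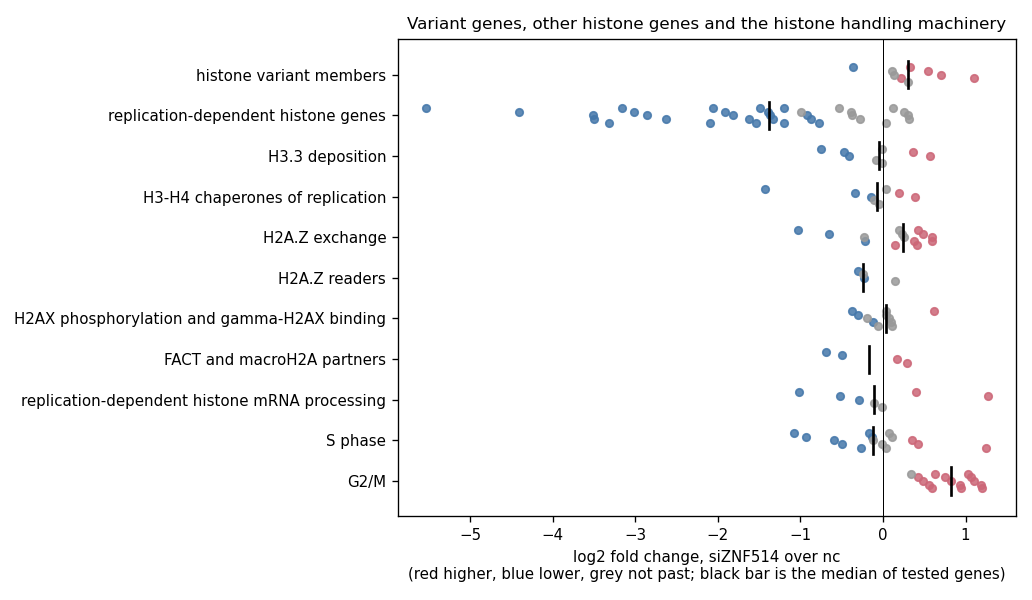
Log2 fold change of siZNF514 over nc (horizontal axis) for each tested gene of the variant set and of 10 lists (rows), red for higher, blue for lower and grey for not past an adjusted p of 0.05, with the median of each row as a black bar. The S-phase histone genes have a median of -1.38. The variant set has one of 0.31, which is the value of the barely detected MACROH2A2. The H3.3 and H2A.Z machinery lies on both sides of 0.

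**Figure D5:**
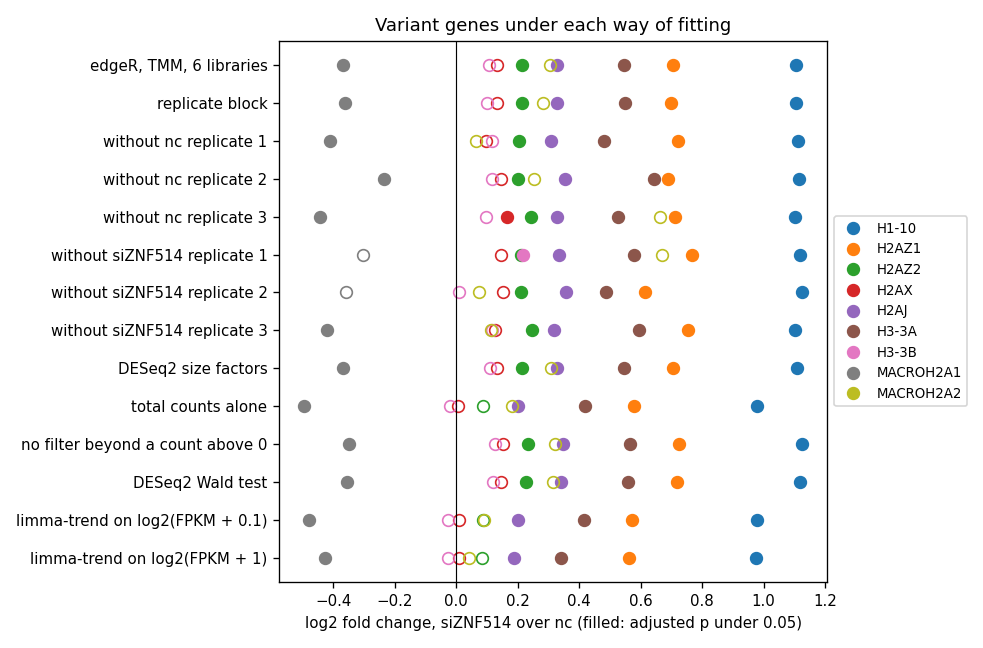
Log2 fold change of siZNF514 over nc (horizontal axis) of each variant gene under 14 ways of fitting (rows), filled where the adjusted p was under 0.05 and open otherwise. H1-10 stays between 0.98 and 1.13 in all of them, whereas H3-3B, H2AX and H2AZ2 lie close to 0 with total counts alone and on FPKM.

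Across the 14 ways of fitting, which are the fit reported above and 13 alternatives, H1-10, H2AZ1, H2AJ and H3-3A were called higher in each. MACROH2A1 was negative in each and lost its call in 2, and MACROH2A2 did not pass in any.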

How the data were processed

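RNA from 6 libraries, 3 per group, was described by 1 deposited table of counts and FPKM per gene. HISAT2 2.0.4 and StringTie 1.3.3b are listed, beside edgeR and hg38, in the submitters' processing notes, which give no role or order. No source used here gives the annotation, the strand use or the handling of reads with several matches. The deposited counts are whole numbers with no normalization, per the file headers. The deposited FPKM values equal, over 22289 genes, a count divided by 1 length per gene and the library total, and for 1608 of them that length exceeds the gene's span.

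Counts were filtered with filterByExpr (minimum count 10, minimum total 15), scaled by TMM and tested for all 14250 genes by the quasi-likelihood F test of edgeR 4.0.16 (R 4.3.3) (residual df 4), with p-values adjusted by Benjamini-Hochberg and a threshold of 0.05. The method was tested on simulated data in which as many genes were raised as lowered, so that test does not bear on the choice of scaling. SE is the log2 fold change divided by the square root of F, and every ± is an SD over 3 libraries. At these depths 1 count is 0.0701 to 0.0789 CPM. Gene pairs had exact permutation tests (scipy 1.17.1). Promoters came from RefSeq (GRCh38.p14), where all 9 genes matched, and exons and transcripts from GENCODE 29.

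Alternatives were DESeq2 1.42.0, limma 3.58.1 on log2(FPKM + 0.1) and log2(FPKM + 1), other scaling, no filter, a replicate block and leaving out each library. Genes named are the 9 variants, up to 4 per list with the smallest p, and those closest in pattern to the variant with the smallest p. A few genes of the lists and rules are not reported here. Members and lists were chosen with earlier results of these data known. Of 5 genes for H3.3 lysine writers, 1 was higher and 1 lower, and the higher one, EZH2, lost its call with total counts alone (0.11).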

Additional observations from a re-analysis of the deposited data

How the results depend on the processing

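The calls of H1-10, H2AZ1, H2AJ and H3-3A were the same under all 13 alternatives, with log2 fold changes of 0.98 to 1.13, 0.56 to 0.77, 0.19 to 0.36 and, with the summed copies included, 0.34 to 0.71. H2AZ2 lost its call with total counts alone (0.0873) and on log2(FPKM + 0.1) (0.0877) and log2(FPKM + 1) (0.0847), and H3-3B turned negative under the same 3 (-0.0196, -0.0276 and -0.0259). Those settings carry no correction for composition.

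Leaving out 1 library at a time gave 0.10 to 0.17 for H2AX, 0.0089 to 0.2159 for H3-3B and -0.44 to -0.23 for MACROH2A1. H2AX passed without nc replicate 3 and H3-3B without siZNF514 replicate 1, and MACROH2A1 did not pass without siZNF514 replicate 1 or 2. The number of variant genes called lower was then 0 to 1, and the number called higher 5 to 6. The cause was not tested. Among the 14437 to 14696 genes tested in these fits, 6310 to 6563 passed, 3197 to 3338 of them higher and 3104 to 3225 lower.

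With the replicate block, 6640 of 14250 genes passed, 3356 higher and 3284 lower, among them 5 variant genes higher and 1 lower. Same-numbered libraries showed no shared deviation (correlations 0.007, 0.041 and -0.036), and differently numbered ones gave -0.063 to 0.053. With 3 libraries per group, these values cannot tell whether the number is a pairing. Copies added to H3-3A and lengths from GENCODE 29 were chosen after seeing the data. Depth limits MACROH2A2, with 5 to 16 counts per library.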

Other observations

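Within the H2A and H3 classes, the variant genes took a larger part of the counts in siZNF514, a description chosen after the values were seen and given without a test. In the H2A class, the 6 variant genes held 86.2% ± 0.473 in nc and 94.4% ± 0.101 in siZNF514. In the H3 class, H3-3A and H3-3B held 90.3% ± 0.094 in nc and 96.1% ± 0.566 in siZNF514. No nc library overlapped a siZNF514 library in either share. As poly(A) selection is not given, and S-phase histone mRNA mostly lacks the tail, the size of each share says nothing of the cells' true makeup. They are shares of counts, not per length, and both the rise of the variants and the fall of the S-phase genes enter them.

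In GENCODE 29, 28.3% of the 50-base windows of MACROH2A1 transcripts also occur in another gene, 26.1% in C5orf66 on the opposite strand, which had 2 to 10 counts per library. For H1-10 it was 17.2%, all shared with H1-10-AS1, and for H3-3A 11.7%, shared with 12 other genes. H2AJ and MACROH2A2 shared none. AIFM2, which overlaps MACROH2A2 on the opposite strand, had 1031 to 1271 counts per library.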
